A study of Mus musculus with 12 samples.

Results

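Macrophages are phagocytes of the innate immune system that live in every tissue, fat included. Some are resident cells that clear dying cells and debris through scavenger and engulfment receptors, while others come from blood monocytes that enter through chemokine receptors and are activated in the tissue. In adipose tissue, macrophages that take up lipid switch on a further set of genes around the receptor Trem2. Fc receptors bind antibody-coated targets and signal through small adaptor proteins, and macrophages are also a main source of the complement subunits C1qa, C1qb and C1qc. The macrophage genes described here are 34 genes chosen by name from textbook markers of these states, out of 37750 rows of the deposited expression table. Under its listed name 33 of them had a row, and 1, Adgre1 (the antigen F4/80), was found under the older symbol Emr1. None lay in a row that joins several gene names.

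The libraries come from mice of a mixed 129 x C57BL/6 background that carry Ad/NICD, the active intracellular domain of Notch1 expressed in adipocytes. White adipose tissue (WAT) was taken at 3 weeks of age (4 libraries). Liposarcoma (LPS, here the tumour and not lipopolysaccharide) was taken at 9 to 12 months (8 libraries). Both groups carry the transgene, so no group of wild-type fat enters any comparison, and age and tissue cannot be told apart between the groups. The labels call the libraries biological replicates without naming the animals.

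Values are FPKM (fragments mapped to a gene, divided by its transcript length in kilobases and by the library's total), so levels of different genes can be set side by side. Sums of FPKM ran from 771665 to 996090 per library, and the fragment totals behind them are not given. By the lowest values that occur, about 1 fragment of a 2 kb transcript was worth between 0.0181 FPKM (WAT 1) and 0.0470 FPKM (LPS 1). LPS 5 stands apart from the other libraries: it held 361556 FPKM of the predicted gene Gm10800, and no other library held more than 3340 FPKM. A typical row read low in LPS 5, at 0.814 of its geometric mean over all 12, while the others lay between 0.991 and 1.06. In bulk tissue, fewer cells of a type and less RNA per cell cannot be told apart.

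The promoters of 6 members are shown because these genes parted tumour from fat with no overlap, 3 higher and 3 lower in LPS; they were picked after their values were seen. Each sequence is the 250 bases before the RefSeq start on GRCm38.p6, read 5′ to 3′ on the gene's own strand. Capitals mark GAGGAA or its reverse complement TTCCTC, a core of sites bound by PU.1, the transcription factor of myeloid cells. Fcgr1 lies at chr3:96293970-96294219, minus strand, Fcgr4 at chr1:171018676-171018925, plus strand, and C1qb at chr4:136886201-136886450, minus strand. Cd163 lies at chr6:124304401-124304650, plus strand, Timd4 at chr11:46810549-46810798, plus strand, and Marco at chr1:120505025-120505274, minus strand.
Fcgr1: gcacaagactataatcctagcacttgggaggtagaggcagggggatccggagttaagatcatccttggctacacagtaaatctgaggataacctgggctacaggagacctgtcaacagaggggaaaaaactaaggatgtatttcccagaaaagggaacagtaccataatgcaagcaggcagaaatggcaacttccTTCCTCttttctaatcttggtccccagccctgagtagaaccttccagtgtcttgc
Fcgr4: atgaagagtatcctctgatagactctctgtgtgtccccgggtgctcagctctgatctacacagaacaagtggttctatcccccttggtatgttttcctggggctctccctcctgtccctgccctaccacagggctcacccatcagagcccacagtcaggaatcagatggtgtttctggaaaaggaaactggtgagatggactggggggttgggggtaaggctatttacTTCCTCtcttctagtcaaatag
C1qb: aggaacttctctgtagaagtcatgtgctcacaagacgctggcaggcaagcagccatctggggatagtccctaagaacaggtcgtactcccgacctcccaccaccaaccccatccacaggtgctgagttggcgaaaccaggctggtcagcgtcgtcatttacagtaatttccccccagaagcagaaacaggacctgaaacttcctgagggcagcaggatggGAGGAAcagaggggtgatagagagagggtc
Cd163: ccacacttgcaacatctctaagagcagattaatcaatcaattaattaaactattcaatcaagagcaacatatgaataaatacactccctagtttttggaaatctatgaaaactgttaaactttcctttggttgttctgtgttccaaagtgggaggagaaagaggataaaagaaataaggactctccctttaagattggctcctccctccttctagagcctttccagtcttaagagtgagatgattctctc
Timd4: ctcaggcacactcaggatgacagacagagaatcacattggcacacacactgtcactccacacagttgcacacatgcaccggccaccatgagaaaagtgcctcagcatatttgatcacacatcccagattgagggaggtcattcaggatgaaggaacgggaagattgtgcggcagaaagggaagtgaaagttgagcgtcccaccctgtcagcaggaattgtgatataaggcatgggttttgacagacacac
Marco: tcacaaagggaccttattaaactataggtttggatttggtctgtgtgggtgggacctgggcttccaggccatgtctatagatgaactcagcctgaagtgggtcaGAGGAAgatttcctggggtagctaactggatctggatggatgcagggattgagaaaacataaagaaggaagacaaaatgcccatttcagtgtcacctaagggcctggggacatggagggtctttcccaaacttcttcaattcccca
The match began 55 bases before the start in Fcgr1, 22 bases before it in Fcgr4, 30 bases before it in C1qb and 146 bases before it in Marco. In windows of 300 bases (250 before to 50 after the start), 14 of the 24 members with an entry held GAGGAA on either strand, or 58.3%, against 28.3% of 32851 promoters. By call, 7 of 10 members higher in LPS, 2 of 6 lower, 3 of 5 tested without a call and 2 of 3 untested members held it. The start used for Fcgr3 (higher, with a match) lay 5532 bases from the start of its measured row. For Lgals3 (lower, without a match) the distance was 6109 bases, so these windows may not be the promoters of the rows measured. Fcer1g, Mertk and Cx3cr1, all higher in LPS, had no match in their windows. TTCNNNGAA, the core of sites bound by STAT factors, occurred in 1 of the 24 (4.17%, Fcgr1) against 8.3% of all promoters. TGCTGA, part of sites bound by MAF factors, occurred in 8 of the 24 (33.3%) against 19.5%. All 3 motifs were searched on both strands, and GAGGAA and TTCNNNGAA can fall on the same bases. A match is a description of the letters and was not tied to binding in these libraries.

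The first comparison asks how macrophage genes differ between established tumours and the fat of young animals with the same transgene. Each value was taken as log2(FPKM + 1) and tested with limma over the 14821 rows that reached 1 FPKM in 4 or more of the 12 libraries. A gene is called higher or lower where its Benjamini-Hochberg adjusted p lies below 0.05. Of the 34 members, 30 passed that filter. Among these, 13 were higher in LPS, 7 were lower and 10 were not called. Over all tested rows, 18.9% were called higher and 27.0% lower, or 46.0% in either direction. The median log2 difference was 0.83 over the tested members and -0.05 over all tested rows. The groups did not overlap in 13 members (9 with LPS higher, 4 with LPS lower), beside 32.6% of all tested rows (11.8% with LPS higher, 20.9% with LPS lower). Calls split by role: 4 of 5 Fc receptor and adaptor genes and all 3 C1q genes were higher in LPS, 4 of the 5 called genes of resident macrophages were lower, and pan-macrophage genes were divided. Among these calls, Fcgr4 passed the filter only through LPS, and the resident genes Timd4 and Marco only through WAT. These 3 therefore had to differ. Nos2 met the filter through the 4 WAT libraries, with 1 tumour at 1 FPKM or more, so the filter favoured a fall. Fcgr1 met it through LPS, with 2 WAT libraries at 1 FPKM or more. Cd163 and Folr2 are the lower resident genes without such a limit. Without WAT 1 and WAT 4 together, only 3 members were called higher and 4 lower, with 9.86% and 19.3% of all rows. Without WAT 2 and LPS 5, 10 members were higher and 6 lower.

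**Figure D1:**
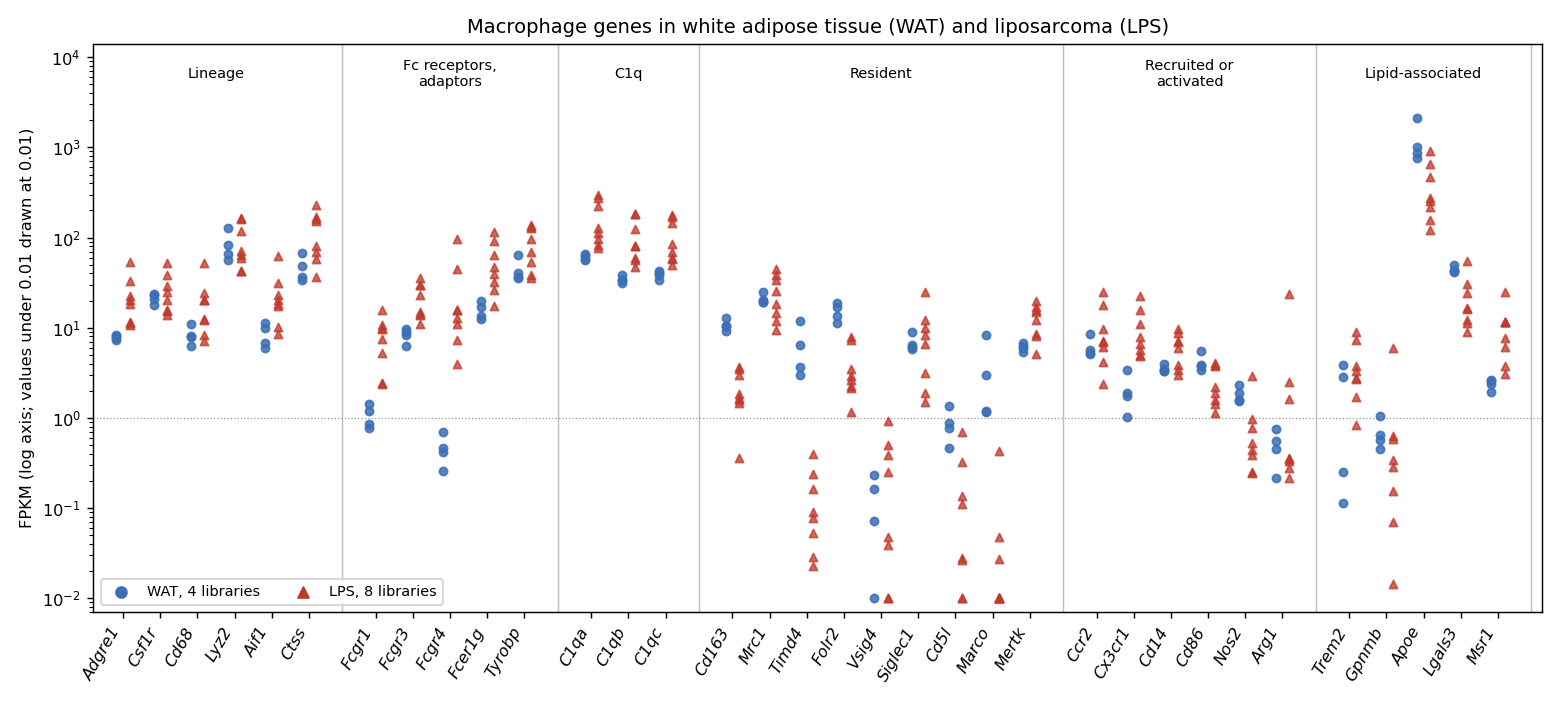
FPKM of the 34 macrophage genes (log axis, values under 0.01 drawn at 0.01) in each of the 4 WAT libraries (circles) and 8 LPS libraries (triangles), ordered by role. Fcgr4 lies below 1 FPKM in every WAT library and at 3.99 FPKM or more in every LPS library, and Timd4 and Marco show the opposite order.

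Pan-macrophage genes did not move as a block. Of the 6, 3 were higher in LPS (Adgre1, Aif1 and Ctss), none was lower, and Csf1r, Cd68 and Lyz2 were not called. Adgre1, the adhesion receptor F4/80, stood at 7.62, 8.15, 7.24 and 8.34 FPKM in WAT. In LPS it ran from 10.6 (LPS 4) through a median of 19.2 to 52.9 FPKM (LPS 1). Every tumour was thus above every WAT library (log2 difference 1.22 ± 0.36 SE, adjusted p = 0.0146). Csf1r, the receptor for the macrophage growth factors Csf1 and Il34, had 17.8, 23.9, 20.9 and 23.0 FPKM in WAT. Its tumours ranged from 14.0 (LPS 8) through a median of 22.4 to 51.8 FPKM (LPS 1), on both sides of the WAT libraries. The difference was 0.15 ± 0.31 (SE, adjusted p = 0.725), and the row of Csf1r in the table runs past the end of the annotated gene.

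Aif1 (the calcium-binding protein Iba1) had 5.99, 11.2, 6.79 and 9.90 in WAT and 8.42 to 63.2 FPKM in LPS, with a median of 19.4. It was called higher (1.20 ± 0.41 SE, adjusted p = 0.0306), with 6 of 8 tumours above all WAT libraries. Ctss, a lysosomal cysteine protease, rose from 46.1 ± 15.02 (SD, n = 4) to 120 ± 68.3 FPKM (SD, n = 8; log2 1.18 ± 0.44 SE, adjusted p = 0.0438). Both calls are the weakest of the role: Aif1 lost its call in 8 and Ctss in 13 of 24 alternative analyses. Leaving out a single library was enough: without WAT 1, WAT 3, WAT 4 or LPS 6 the adjusted p of Aif1 was 0.092, 0.0825, 0.0511 and 0.0515, and that of Ctss 0.111, 0.12, 0.0806 and 0.0712. For Ctss, leaving out LPS 1, LPS 2, LPS 5 or LPS 7 likewise ended the call, with an adjusted p of 0.0685, 0.0508, 0.069 and 0.062. Cd68, a glycoprotein of late endosomes, was at 8.30 ± 1.92 in WAT and 19.8 ± 14.7 FPKM in LPS and was not called (0.93 ± 0.42 SE, adjusted p = 0.0854). Its highest tumour was LPS 5 at 52.7 FPKM, and without LPS 8 it was called (adjusted p = 0.0386). Lyz2, lysozyme of myeloid cells, was at 83.2 ± 31.9 and 90.6 ± 50.6 FPKM, with a log2 difference of 0.00 ± 0.39 (SE, adjusted p = 0.996). Reads of Lyz2 may be split with its close copy Lyz1, so its level is uncertain.

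Of the 5 Fc receptor and adaptor genes, 4 were higher in LPS and none lower, and they include Fcgr4 and Fcgr1, the 2 largest increases among the tested members. Fcgr4, an activating receptor for IgG antibodies, was at 0.423, 0.698, 0.259 and 0.459 FPKM in WAT. In the tumours LPS 1 to LPS 8 it stood at 45.3, 11.0, 15.9, 7.27, 15.6, 12.9, 97.5 and 3.99 FPKM. WAT values correspond to about 5.4 to 14.7 fragments per library, and every tumour lay above them (log2 3.59 ± 0.63 SE, adjusted p = 0.000417). Fcgr4 passed the filter only through the LPS libraries, so a difference was bound to appear in it. Fcgr1, the high-affinity IgG receptor, stood at 1.19, 0.768, 0.846 and 1.41 in WAT and at 2.40 to 15.7 FPKM in LPS, with a median of 8.59. The groups did not overlap (1.94 ± 0.40 SE, adjusted p = 0.00134). Both calls held in all 24 alternatives.

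Fcgr3, a low-affinity IgG receptor, had 6.29, 8.28, 8.95 and 9.68 in WAT and between 11.1 and 35.5 FPKM in LPS. It was called higher without overlap (1.17 ± 0.29 SE, adjusted p = 0.00514). Part of the sequence of Fcgr3 is shared with its neighbour Fcgr2b, so some reads may be split between them. Fcer1g encodes the signalling chain of the activating Fc receptors. It rose from 15.7 ± 3.44 to 54.3 ± 34.2 FPKM (1.51 ± 0.42 SE, adjusted p = 0.0108), with 7 of 8 tumours above all WAT libraries. Mast cells also express Fcer1g: the sum of 8 mast cell markers ran from 57.9 to 74.0 in WAT and from 5.95 to 147 FPKM in LPS, with 0 of 6 tested markers higher and 2 lower. The part of mast cells in the Fcer1g difference was not tested. Tyrobp (DAP12), the adaptor of Trem2 and other receptors, was at 44.4 ± 13.3 and 86.0 ± 42.9 FPKM and was not called (0.80 ± 0.38 SE, adjusted p = 0.105), except without LPS 8 (adjusted p = 0.0423) or with array weights (0.0343).

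All 3 C1q subunits were higher in every tumour than in any WAT library. C1qa had 55.7, 62.1, 65.2 and 57.6 FPKM in WAT and 77.3 (LPS 8) to 293 FPKM (LPS 1) in LPS, with a median of 120. The difference was 1.22 ± 0.36 (SE, adjusted p = 0.0139). C1qb rose from 34.3 ± 2.91 to 102 ± 54.4 FPKM (1.37 ± 0.35 SE, adjusted p = 0.00579). C1qc rose from 38.6 ± 3.67 to 102 ± 53.2 FPKM (1.21 ± 0.35 SE, adjusted p = 0.0117). These genes form 1 cluster on chromosome 4, between C1qb at 136880129 and the end of C1qa at 136898803 in the table's GRCm38 coordinates. LPS 1, LPS 7 and LPS 6 were the 3 highest tumours in each subunit and LPS 8 the lowest. With WAT 1 and WAT 4 left out, 2 WAT libraries remained, and the share of all rows called higher fell from 18.9% to 9.86%. No C1q call was left in that setting (adjusted p = 0.12, 0.06 and 0.112 for C1qa, C1qb and C1qc).

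**Figure D2:**
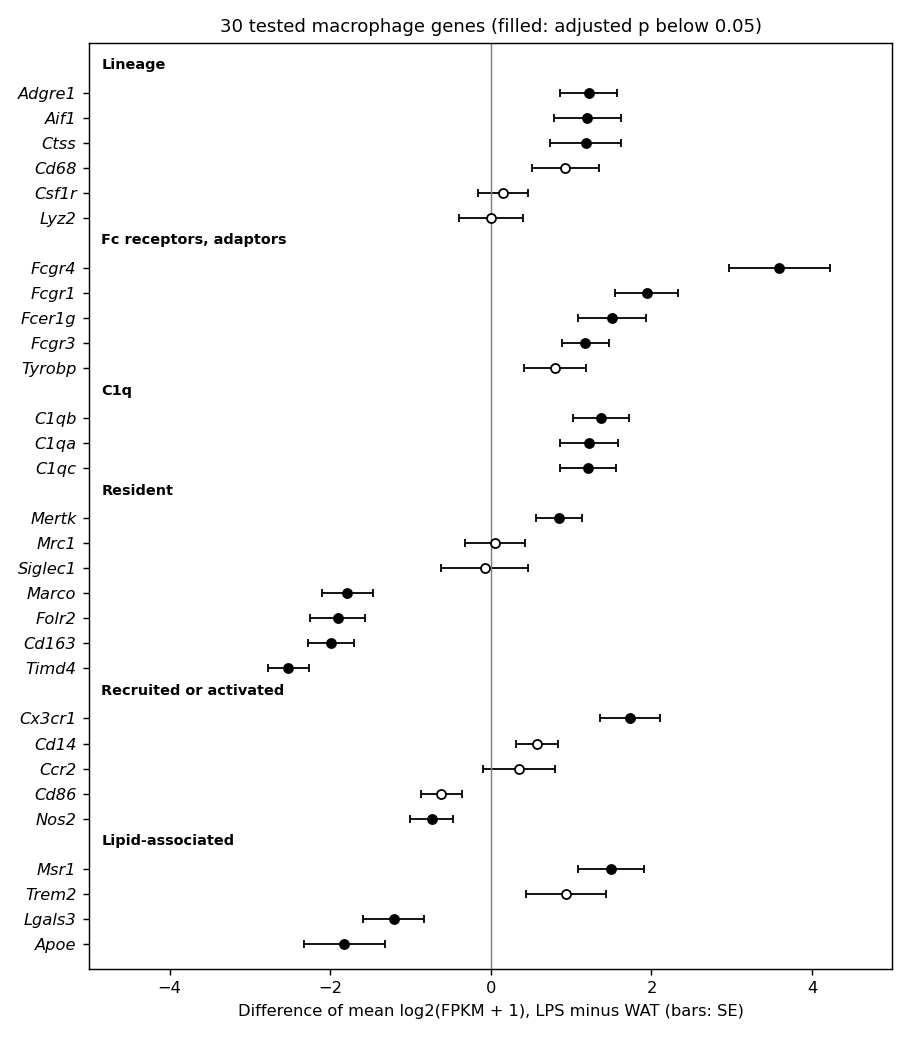
Difference of mean log2(FPKM + 1), LPS minus WAT, with its standard error for the 30 tested macrophage genes, grouped by role. Filled points have an adjusted p below 0.05: 13 lie to the right of 0 and 7 to the left, with Fcgr4 at 3.59 and Timd4 at -2.52 as the ends.

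Of the 9 genes of resident macrophages, 7 were tested: 4 fell (Cd163, Timd4, Folr2 and Marco), 1 rose (Mertk) and 2 were not called (Mrc1 and Siglec1). Cd163, the scavenger receptor for haemoglobin bound to haptoglobin, had 10.3, 9.29, 12.9 and 10.5 FPKM in WAT. The tumours LPS 1 to LPS 8 had 3.72, 1.48, 0.362, 1.65, 2.97, 1.57, 3.48 and 1.84 FPKM. Every tumour was below every WAT library, on average 5.04 times lower (log2 -1.995 ± 0.29 SE, adjusted p = 8.04e-05). Folr2, the folate receptor of resident macrophages, was at 13.4, 17.1, 18.8 and 11.2 in WAT and at 1.17 to 7.87 FPKM in LPS, with a median of 2.76. It fell without overlap (-1.90 ± 0.34 SE, adjusted p = 0.000529).

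Timd4, a receptor for phosphatidylserine on dying cells, was at 3.72, 11.9, 2.96 and 6.37 FPKM in WAT. In the tumours it ran from 0.0227 to 0.401 FPKM with a median of 0.0840, or about 0.9 to 16.6 fragments per library. The groups did not overlap (-2.52 ± 0.25 SE, adjusted p = 3.42e-06). Marco, a scavenger receptor for bacteria and particles, had 1.16, 8.31, 1.20 and 2.96 FPKM in WAT. It was listed at 0 in 5 tumours and reached 0.424 FPKM in LPS 5 (-1.79 ± 0.32 SE, adjusted p = 0.00048). Timd4 and Marco passed the filter only through the WAT libraries, so a difference was bound to appear in them. WAT 2 was the highest library in both genes, and it also had the highest sum of 8 B cell markers, at 187 FPKM against 71.5 to 90.9 in the other WAT libraries. In LPS these B cell markers summed to 1.83 to 8.72 FPKM, and all 8 of 8 tested markers were lower. T cell markers summed to 97.6 to 165 in WAT and 3.97 to 58.3 FPKM in LPS, with 7 of 8 lower. Adipocyte markers summed to 4452 to 5370 in WAT and to 5.99 to 119 FPKM in LPS, with 8 of 8 lower. The part that these other cells have in the lower resident genes was not tested. Without WAT 2 and LPS 5 the same 4 resident genes, and no others of the role, were called lower. This setting, chosen after seeing the data, cannot address the part of B cells. The WAT libraries left still had B cell sums of 71.5 to 90.9 FPKM.

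Mertk, a kinase receptor for the engulfment of dying cells, went the other way, from 6.71, 5.43, 6.01 and 6.31 FPKM in WAT to 5.08 to 20.03 FPKM in LPS. With 7 of 8 tumours above all WAT libraries it was called higher (0.85 ± 0.29 SE, adjusted p = 0.0289), though 7 of 24 alternatives lost the call, among them leaving out WAT 1, WAT 2, WAT 3 or WAT 4 (adjusted p = 0.0522, 0.0745, 0.0654 and 0.06). Mrc1, the mannose receptor CD206, was at 20.9 ± 2.82 in WAT and 24.6 ± 13.3 FPKM in LPS (0.05 ± 0.37 SE, adjusted p = 0.922). Its tumours lay on either side of the WAT libraries, 4 above all of them and 4 below. Siglec1, the sialic acid receptor CD169, was likewise split, with 3 tumours above and 3 below all WAT libraries (-0.08 ± 0.54 SE, adjusted p = 0.918). Its range in LPS, 1.503 (LPS 8) to 25.1 FPKM (LPS 1), enclosed the WAT range of 5.78 to 8.86 FPKM. Vsig4, a complement receptor, and Cd5l, a secreted scavenger protein, did not pass the filter. Vsig4 was at 0 to 0.235 in WAT and at 0 to 0.928 FPKM in LPS, and Cd5l at 0.459 to 1.34 in WAT and at 0 to 0.695 FPKM in LPS.

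Genes of recruited and activated macrophages showed no common direction: of 6, 5 were tested, 1 rose (Cx3cr1), 1 fell (Nos2) and 3 were not called. Cx3cr1, the fractalkine receptor, had 1.77, 3.36, 1.03 and 1.88 FPKM in WAT. In LPS it ran from 4.84 (LPS 7) through a median of 7.24 to 22.5 FPKM (LPS 6), above every WAT library (1.73 ± 0.37 SE, adjusted p = 0.00193). The row of Cx3cr1 spans more than the annotated gene at its end. Ccr2, the receptor that brings monocytes into tissue, stood at 6.13 ± 1.56 in WAT and 9.91 ± 7.63 FPKM in LPS and was not called (0.36 ± 0.45 SE, adjusted p = 0.545). LPS 5 (24.8 FPKM) and LPS 1 (17.98 FPKM) were its high tumours. Cd14, a co-receptor for bacterial lipopolysaccharide, was at 3.51 ± 0.324 and 6.09 ± 2.50 FPKM (adjusted p = 0.0923). Cd86, a co-stimulatory ligand for T cells, was at 4.14 ± 0.926 and 2.49 ± 1.21 FPKM (adjusted p = 0.0647), and neither was called. Without LPS 2 Cd14 was called higher (adjusted p = 0.0375), and without LPS 1, LPS 6 or LPS 7 Cd86 was called lower (adjusted p = 0.0328, 0.0397 and 0.04).

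Nos2, the inducible nitric oxide synthase, had 2.32, 1.57, 1.87 and 1.53 FPKM in WAT. In LPS it was between 0.247 and 0.961 FPKM in 7 tumours and 2.93 FPKM in LPS 3, above all WAT libraries. It met the filter through the 4 WAT libraries, with LPS 3 the only tumour at 1 FPKM or more, so the filter favoured a fall. Nos2 was called lower (-0.73 ± 0.27 SE, adjusted p = 0.0396), but 16 of 23 alternatives lost that call. Leaving out any 1 library other than LPS 3 or LPS 6 ended it (adjusted p = 0.0524 to 0.11). Arg1, the arginase that competes with Nos2 for arginine, did not pass the filter. It had 0.217 to 0.756 FPKM in WAT, and in LPS 1 to LPS 8 it stood at 0.352, 1.62, 0.359, 0.217, 23.5, 2.51, 0.330 and 0.275 FPKM. In LPS 5 the level was thus 23.5 FPKM, while LPS 6 came next at 2.51 FPKM.

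Lipid-associated genes were divided as well: of 5, 4 were tested, Msr1 rose, Apoe and Lgals3 fell, and Trem2 was not called. Msr1, the class A scavenger receptor that takes up modified lipoproteins, was at 1.91, 2.66, 2.55 and 2.35 FPKM in WAT. In LPS 1 to LPS 8 it stood at 11.7, 6.08, 7.71, 3.81, 25.1, 11.6, 11.7 and 3.06 FPKM. No tumour overlapped WAT (1.496 ± 0.41 SE, adjusted p = 0.00904). Apoe, the lipid carrier apolipoprotein E, had 760, 1019, 870 and 2106 FPKM in WAT, the highest levels of any member there. In LPS it ran from 121 (LPS 3) through a median of 263 to 922 FPKM (LPS 6), with 7 of 8 tumours below all WAT libraries (-1.82 ± 0.51 SE, adjusted p = 0.0103). Adipocytes also make Apoe; the part of the lower adipocyte markers, given above, in its fall was not tested.

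Lgals3, the lectin galectin-3, had 41.7, 50.02, 44.0 and 42.2 in WAT and 8.99 to 55.5 FPKM in LPS. It fell (-1.21 ± 0.38 SE, adjusted p = 0.0195) in 7 of 8 tumours, and LPS 5 alone was above all WAT libraries. Without WAT 2 the call was lost (adjusted p = 0.0533). Trem2, the lipid-sensing receptor that names the state, was uneven within WAT, at 2.81, 0.251, 3.82 and 0.115 FPKM. Its tumours ran from 0.833 (LPS 3) to 8.93 FPKM (LPS 5), and the difference was not called (0.94 ± 0.49 SE, adjusted p = 0.139). Gpnmb, a membrane glycoprotein of lysosome-rich macrophages, did not pass the filter: it was at 0.452 to 1.05 FPKM in WAT, at 5.91 FPKM in LPS 5 and at 0.0143 to 0.638 FPKM in the other 7 tumours.

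To read the roles tumour by tumour, the log2(FPKM + 1) values of each role were averaged in every library. These means are descriptions and were not tested. The Fc receptor mean was 2.70 to 3.04 in WAT and 3.52 (LPS 8) to 5.84 (LPS 7) in LPS. The C1q mean was 5.36 to 5.57 in WAT and 5.85 (LPS 8) to 7.73 (LPS 1) in LPS. The resident mean was 2.45 to 2.85 in WAT, and LPS 1 to LPS 8 stood at 2.25, 1.29, 1.59, 1.34, 2.04, 1.90, 2.01 and 1.30. In all 8 tumours, then, the first pair of means was above every WAT library and the resident mean below every one. The Fc receptor mean includes Fcgr4, and the resident mean Timd4 and Marco, so part of each gap was fixed by the filter. Of the other tested resident genes in LPS 1, Mrc1 (45.2 FPKM), Siglec1 (25.1) and Mertk (15.9) were above every WAT library. Cd163 (3.72) and Folr2 (7.36) were below every one. The mean of recruited and activated genes was 1.66 to 2.04 in WAT, and in LPS 1 to LPS 8 it stood at 2.48, 1.89, 2.24, 1.45, 2.93, 2.68, 2.02 and 1.47. The lipid-associated mean was 3.68 to 4.00 in WAT, and in the same order of tumours 4.07, 3.37, 2.91, 3.22, 4.92, 4.20, 4.05 and 2.95. On both of these scales LPS 5 was the highest tumour. The mean of recruited and activated genes includes Arg1, which did not pass the filter and stood at 23.5 FPKM in LPS 5. By median rank among the tumours over the genes of that role, LPS 5 was at 4, against 2 for LPS 1 and LPS 6. Over the lipid-associated genes the median rank of LPS 5 was 1. The lipid-associated mean put 4 tumours above all WAT libraries (LPS 1, LPS 5, LPS 6 and LPS 7) and 4 below.

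**Figure D3:**
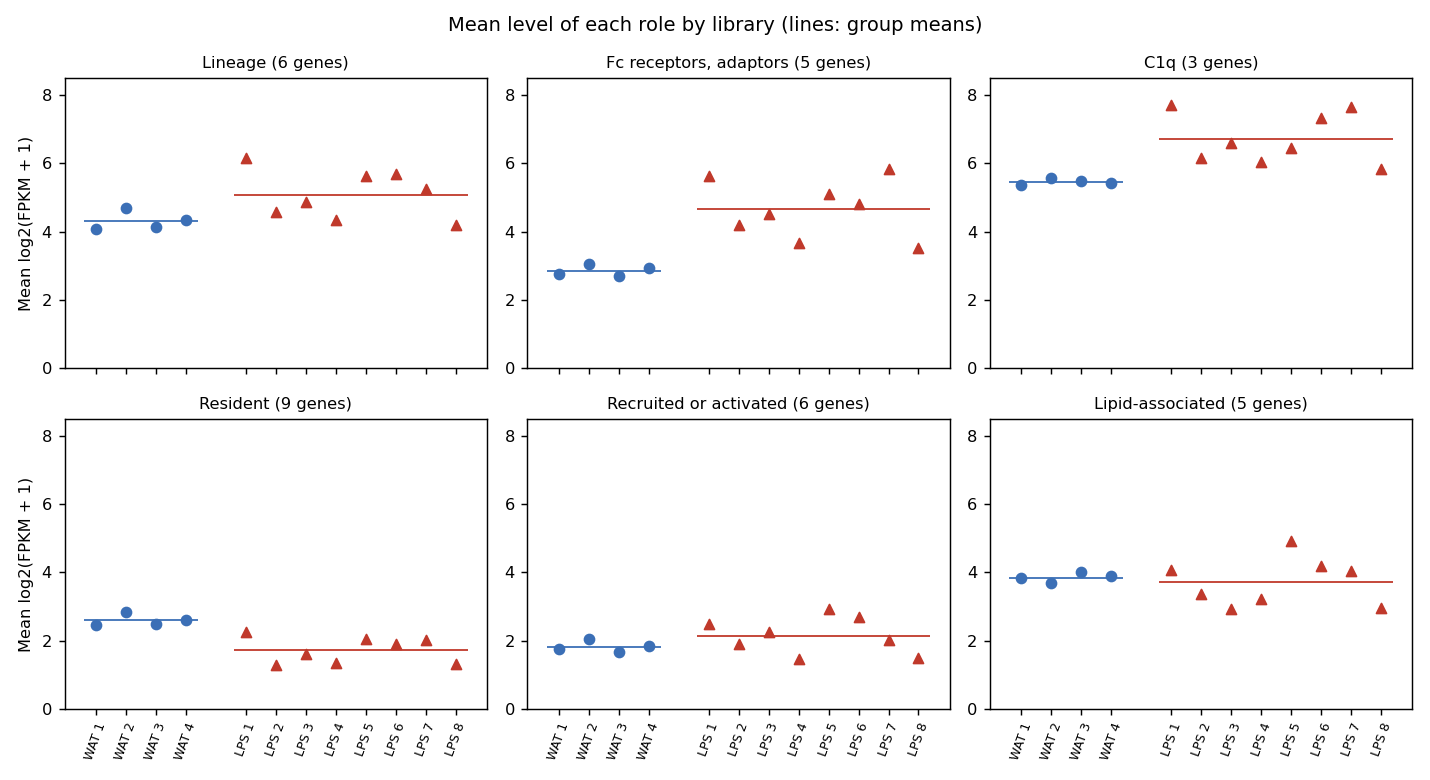
Mean log2(FPKM + 1) of the members of each role in every library, with a line at each group mean. The Fc receptor and C1q means of all 8 LPS libraries lie above the WAT libraries, the resident means all lie below, and the other roles overlap or split. The resident means include Timd4 and Marco, which passed the filter only through WAT. The Fc receptor means include Fcgr4, which passed it only through LPS.

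Tumours differed in their whole macrophage level. LPS 1 was the highest tumour in 13 of the 34 members and LPS 5 in 11, followed by LPS 7 in 6, LPS 6 in 2, and LPS 2 and LPS 3 in 1 each. LPS 8 was the lowest in 17 members, LPS 4 in 5, LPS 3 in 4, LPS 2 in 3 and LPS 7 in 2 (3 members with several tumours at the same lowest value are not counted). The mean of the 6 pan-macrophage genes was 4.07 to 4.68 in WAT and 4.18 (LPS 8) to 6.16 (LPS 1) in LPS. Taking that mean away from the resident mean left -1.84 to -1.62 in WAT and -3.91 to -2.88 in LPS. Since the resident mean was lower in LPS and the pan-macrophage mean higher on average, this step widened a gap that was already there. LPS 1, with the highest resident mean among the tumours, had the lowest value on this scale. For the lipid-associated mean the same step gave -1.01 to -0.13 in WAT and -2.09 to -0.72 in LPS, which overlap through LPS 5. For Fc receptors it gave -1.64 to -1.32 in WAT and -0.89 to 0.60 in LPS, without overlap. For C1q it gave 0.88 to 1.34 in WAT and 0.80 (LPS 5) to 2.43 (LPS 7) in LPS, so the C1q groups, apart before this step, overlapped after it.

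Ratios to Csf1r in the same library, a gene whose own difference was not called in this comparison, set the roles side by side within each library. The row of Csf1r runs past the annotated gene, so reads of neighbouring transcripts may be part of this denominator, and every ratio here shares it. Cd163 stood at 0.388 to 0.619 of Csf1r in WAT and at 0.0180 to 0.132 in LPS. Folr2 stood at 0.487 to 0.899 in WAT and at 0.0743 to 0.317 in LPS. Both therefore lay lower per unit of Csf1r in each tumour. Mrc1 did not part the groups, with ratios of 0.809 to 1.20 in WAT and 0.610 to 1.34 in LPS. Cd86 had ratios of 0.165 to 0.230 in WAT and 0.0761 to 0.131 in LPS, without overlap, although its level was not called. In LPS, 8 of 8 tested B cell markers were lower, and of 6 tested dendritic cell markers 4 were lower and 1 higher. The part of these cells in the Cd86 ratios was not tested. Msr1 had 0.102 to 0.122 in WAT and 0.219 to 1.01 in LPS, and C1qa 2.51 to 3.13 and 4.56 to 9.50. These higher ratios did not overlap between the groups. Other pan-macrophage genes also stood higher per unit of Csf1r without overlap. Adgre1 had 0.340 to 0.427 in WAT and 0.642 to 1.02 in LPS, Cd68 0.271 to 0.456 and 0.472 to 2.12, and Aif1 0.326 to 0.469 and 0.602 to 1.22. The ratios of Ctss and Lyz2 overlapped. Higher ratios to Csf1r are thus not particular to Msr1 and C1qa.

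**Figure D4:**
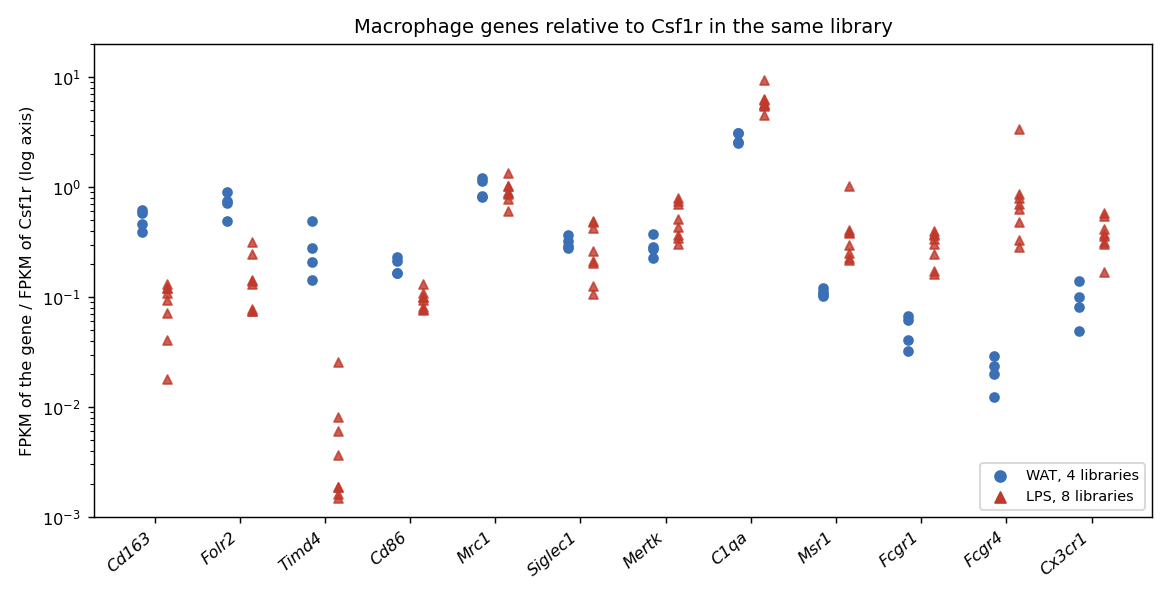
FPKM of 12 macrophage genes divided by FPKM of Csf1r in the same library (log axis), for 4 WAT libraries (circles) and 8 LPS libraries (triangles). Cd163, Folr2, Timd4 and Cd86 lie lower in every LPS library, Mrc1 overlaps, and C1qa, Msr1, Fcgr1, Fcgr4 and Cx3cr1 lie higher in every one. The pan-macrophage genes Adgre1, Cd68 and Aif1, not drawn, also had higher ratios in every LPS library.

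LPS 5 and LPS 7 carried different genes. In LPS 5, 11 members had their highest value of any tumour. These were Cd68 (52.7 FPKM), Ccr2 (24.8), Arg1 (23.5), Trem2 (8.93), Gpnmb (5.91), Lgals3 (55.5) and Msr1 (25.1), and the resident genes Folr2 (7.87), Vsig4 (0.928), Cd5l (0.695) and Marco (0.424). Of other genes, Spp1 (osteopontin, made by lipid-associated and tumour macrophages) was at 113 FPKM in LPS 5 against 1.07 to 8.37 FPKM in the remaining tumours. In WAT it was at 0.506 to 0.584 FPKM, below every tumour, and it passed the filter only through LPS. Spp1 was not called between the groups (adjusted p = 0.0794). Chil3, a chitinase-like protein of activated macrophages and neutrophils, was at 61.0 FPKM in LPS 5 and at most 4.62 FPKM elsewhere. The sum of 10 neutrophil markers was also highest in LPS 5, at 189 FPKM against 7.76 to 34.6 FPKM in the other tumours and 4.08 to 50.5 FPKM in WAT; 4 of these markers were tested, of which 1 was higher and none lower. The sum of 5 erythroid markers was likewise highest there, at 2589 FPKM against 13.6 to 394 FPKM in the other tumours and 1018 to 2375 FPKM in WAT. The part of neutrophils or blood in the LPS 5 values was not tested. In LPS 7, Fcgr4 (97.5 FPKM), Fcgr3 (35.5), Fcer1g (116), Ctss (231), Mertk (20.03) and Cd14 (9.75) were the highest of any tumour, while Cx3cr1 (4.84) and Lyz2 (42.4) were the lowest. Its neutrophil sum, 34.6 FPKM, was the highest among the tumours after LPS 5. The part of neutrophils in the LPS 7 values was not tested either.

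**Figure D5:**
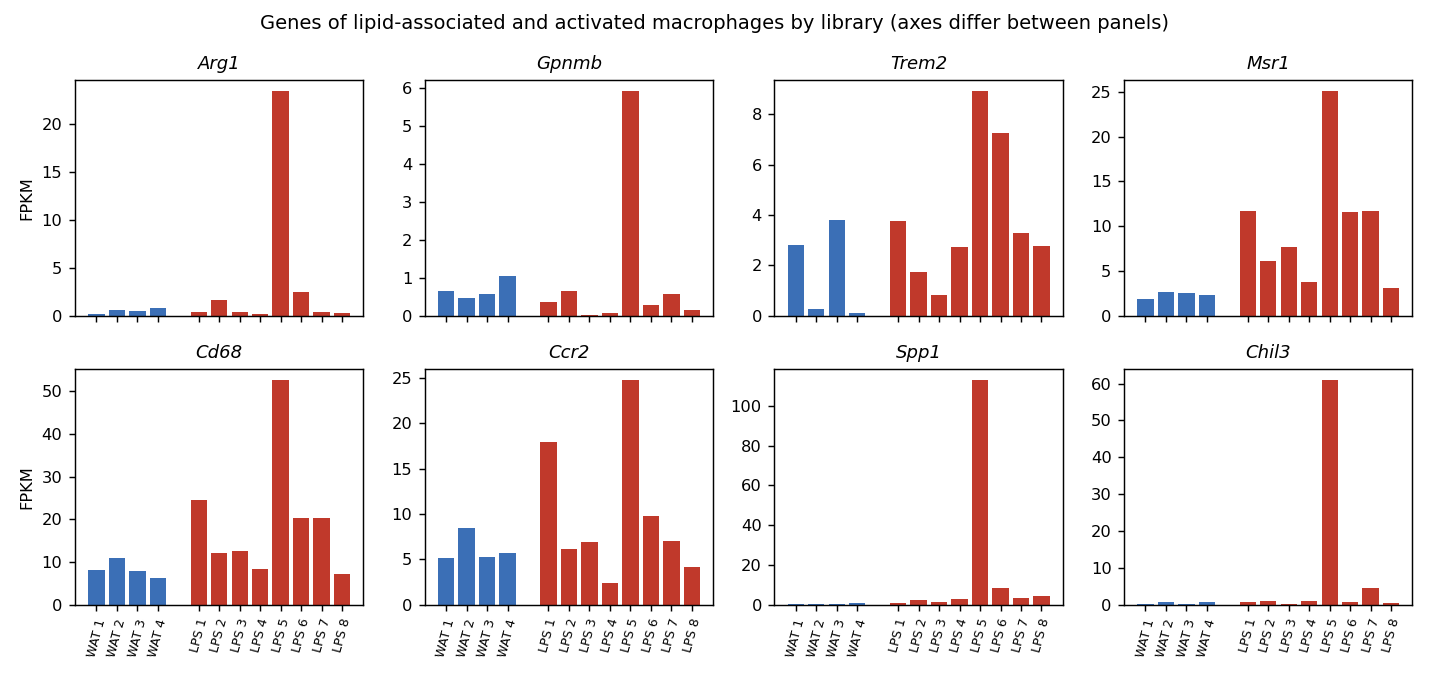
FPKM of 6 macrophage genes and of Spp1 and Chil3 in each of the 12 libraries (bars from 0, axes differ between panels). LPS 5 is the highest library in all 8 panels, with Arg1 at 23.5, Gpnmb at 5.91, Spp1 at 113 and Chil3 at 61.0 FPKM.

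Other genes of the same states, from lists that do not overlap the members, are given here as counts with examples. Genes whose row joins several names are left out of these counts. Of 14 further genes of resident macrophages, 8 fell, 1 rose and 5 were not called, beside 27.0% lower and 18.9% higher over all tested rows. Lyve1, a hyaluronan receptor of vessel-associated macrophages and lymphatic vessels, fell from 14.5 ± 3.71 to 1.81 ± 1.65 FPKM (log2 -2.60 ± 0.36 SE, adjusted p = 6.65e-05). The lectins Mgl2 and Cd209f fell from 11.5 ± 1.79 to 1.12 ± 0.922 and from 7.59 ± 0.901 to 0.733 ± 1.12 FPKM. Cd209f and Ccl24, also among the 8 that fell, passed the filter through WAT, with 2 and 0 tumours at 1 FPKM or more. Their falls are therefore no open test. Ms4a7, a membrane protein of macrophages, rose from 2.64 ± 0.321 to 21.1 ± 12.7 FPKM (2.42 ± 0.35 SE, adjusted p = 9.53e-05). Igf1, the most abundant gene without a call, was at 53.2 ± 4.51 and 35.5 ± 41.3 FPKM.

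Of 11 tested further genes of lipid-associated macrophages, 1 rose and 3 fell. Over all tested rows 18.9% were higher and 27.0% lower, and counts near these shares are not read as traits of a list. Ctsd, a lysosomal protease whose row is joined with Ifitm10 and not counted, was at 394 and 126 FPKM and was called lower (adjusted p = 1.81e-05). Cd63, a tetraspanin of lysosomes, rose from 47.5 ± 3.99 to 146 ± 24.1 FPKM (1.59 ± 0.13 SE, adjusted p = 6.79e-07). Lpl (lipoprotein lipase), Fabp5 (a fatty acid carrier) and Plin2 (a lipid droplet coat protein) fell, Lpl from 953 ± 183 to 20.4 ± 25.2 FPKM. Adipocytes express all 3 of these, and the adipocyte sums are given above. Ctsb, a lysosomal protease, was at 149 ± 8.48 and 102 ± 37.7 FPKM and was not called. Of 9 tested further genes of inflammatory macrophages, 3 rose and 2 fell. Il1b rose from 0.390 ± 0.154 to 7.78 ± 5.08 FPKM, Il6 from 0.0678 ± 0.0615 to 5.71 ± 4.44 FPKM and Cxcl10 from 7.02 ± 3.89 to 33.4 ± 20.4 FPKM (adjusted p = 0.000208, 0.000699 and 0.0259). The call of Cxcl10 held in 18 of 24 alternatives. Il1b and Il6 were under 1 FPKM in every WAT library and passed the filter only through LPS, so a rise was bound to appear in them. These cytokines are made by many cell types. Tnf, a further cytokine, fell from 2.69 ± 1.15 to 1.14 ± 0.549 FPKM. Plac8, a gene of monocytes and other cells, was at 17.3 ± 3.22 and 88.5 ± 88.4 FPKM and was not called (adjusted p = 0.091).

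Of the growth factors and receptors upstream, 3 genes with a row of their own were tested. Csf2rb and Csf2rb2, subunits of the receptors for Csf2 and related cytokines, share their rows with a microRNA and are not in that count. Those joined rows were lower in LPS, at 12.2 and 3.51 FPKM for Csf2rb and at 6.59 and 1.73 FPKM for Csf2rb2 (adjusted p = 0.0016 and 0.00296). Il34, the second ligand of Csf1r, had 6.34, 6.01, 7.84 and 5.46 FPKM in WAT. In LPS 5 it was at 6.97 FPKM, within the WAT range, and the other tumours ran from 16.2 (LPS 8) to 50.2 FPKM (LPS 3). Il34 was called higher (1.99 ± 0.45 SE, adjusted p = 0.00269). Beside it, 7 of 7 pericyte markers were higher, with sums of 219 to 235 in WAT and 3450 to 7015 FPKM in LPS. Fibroblast markers were lower in 5 of 5, with sums of 842 to 1460 in WAT and 15.7 to 345 FPKM in LPS. The part of these cells in the rises of Il34, Il6 and Cd63 was not tested. Csf1, the first ligand, was at 11.0 ± 0.822 and 10.5 ± 3.41 FPKM and was not called (adjusted p = 0.697). Of 9 myeloid transcription factor genes, none rose and 2 fell, beside 18.9% higher and 27.0% lower over all tested rows. These were Cebpa, from 177 ± 10.7 to 4.77 ± 2.49 FPKM, and Cebpb, from 64.0 ± 14.4 to 10.3 ± 8.06 FPKM, both also central to adipocytes.

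Downstream of Tyrobp and the Fc receptor chain, 9 signalling genes gave 4 falls and no rise, beside 27.0% lower and 18.9% higher over all tested rows. Syk, the kinase that binds both adaptors, fell from 18.1 ± 8.08 to 6.34 ± 3.22 FPKM (-1.43 ± 0.35 SE, adjusted p = 0.00471). Hcst, a partner adaptor, fell from 9.03 ± 1.20 to 2.70 ± 1.84 FPKM, and Plcg2, a phospholipase, from 8.27 ± 3.67 to 3.49 ± 1.94 FPKM. Lyn, a kinase of the same pathway, was at 22.3 ± 5.00 and 32.3 ± 11.0 FPKM and was not called. B cells and other leukocytes also express these genes, and WAT 2 had the highest Syk (30.2 FPKM) and Plcg2 (13.7 FPKM) of all libraries. Among 11 genes of leukocytes at large, 2 rose and 5 fell. Mpeg1 (perforin-2, of macrophages) rose from 9.60 ± 3.64 to 32.0 ± 17.5 FPKM and Itgam (CD11b) from 4.12 ± 0.638 to 11.8 ± 7.46 FPKM, the latter called in 10 of 24 alternatives. Ptprc (CD45) fell from 81.3 ± 28.6 to 27.4 ± 16.1 FPKM, and Coro1a and Rac2 fell as well. Lcp1, an actin-bundling protein, was at 50.6 ± 19.3 and 26.9 ± 14.6 FPKM and was not called.

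Across the 8 tumours, the genes most like the pan-macrophage mean were sought among 8959 rows with a mean of at least 5 FPKM in LPS. The nearest were Lst1 (Pearson r = 0.976), Myo1f (0.973), Dock2 (0.965), Mpeg1 (0.965), Maf (0.964), Ms4a7 (0.960), Tbxas1 (0.960) and Adcy7 (0.956). This likeness is a description over 8 points that share library depth and scaling, picked from many rows. Between the groups they did not share a direction. Lst1 rose from 7.30 to 37.8 FPKM (adjusted p = 0.000852), while Dock2 fell from 31.1 to 6.98 FPKM (adjusted p = 0.000638).

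Age was examined within LPS, where the libraries span 9 to 12 months, as a log2 slope per month. None of the 27 members tested had an adjusted p below 0.05 in limma, and none had an unadjusted p below 0.05 either. Of all 13280 rows tested, 0 passed after adjustment and 1.72% had an unadjusted p below 0.05. Leaving out LPS 4, the only tumour at 12 months, 2 members had an unadjusted p below 0.05 and none an adjusted one.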

How the data were processed

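Per the labels' protocols, Trizol-extracted total RNA went through ribosomal RNA depletion (Ribo-Zero Gold) and a stranded library kit. The table deposited by the authors holds FPKM, 1 value for each locus in each library. The build, per the submitters' processing notes, was GRCm38 and the tools included Cuffdiff 2.2.1, Cufflinks 2.2.1, TopHat2 2.1.0, Trimmomatic and Bowtie2, without their roles. Counts and depth are not given in the sources used here, so low values are less precise by an unknown amount, and a listed 0 can be a failed estimate.

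Groups came from the labels. The members, the lists and the tests were chosen with earlier results of these data known. All 34 members are reported; from each further list the text names up to 3 called genes each way with the largest difference and the most abundant uncalled gene, and Spp1, Chil3 and the genes named beside a library were added after their values were seen. Some genes that this rule names are not reported here. Of the members, 19 have row ends identical to GENCODE M21.

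limma 3.58.1 in R 4.3.3 was fitted to log2(FPKM + 1) with its trend and robust options. Tests were two-sided, with Benjamini-Hochberg adjustment at 0.05 over all 14821 rows tested (13280 for age within LPS). On this scale, changes of genes near or under 1 FPKM are understated. A ± after a mean is an SD (n = 4 for WAT, n = 8 for LPS). The fit was tested on simulated data. Alternatives were other pseudocounts, filters, scalings and weights, a replicate block, left-out libraries and an exact permutation test. Promoters came from RefSeq and were matched by symbol. The value of about 1 fragment is the 5th percentile of non-zero FPKM times length over 2164 single-transcript genes longer than 2000 bases. Tables and figures used Python 3.11.15, pandas 2.3.3 and matplotlib 3.10.9.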

Additional observations from a re-analysis of the deposited data

Results flagged for a closer look

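In 4 of 68 sets of values (34 genes in 2 groups), 1 library was flagged as far from the rest of its group. The flag weighs its gap to the next library against the group's range on the log2(FPKM + 1) scale. Chance gives about 1 set in 20, and 4 of 68 is close to that share. All 4 are tumour values, which is not read as a trait of tumours. Apoe, at 760, 1019, 870 and 2106 FPKM in WAT, also had a wide gap but was not flagged. Arg1 was at 23.5 FPKM in LPS 5 and at 0.217 to 2.51 FPKM in the other tumours. Gpnmb was at 5.91 FPKM in LPS 5 and at 0.0143 to 0.638 FPKM in the others. Marco was at 0.424 FPKM in LPS 5 (about 11.7 fragments) and at 0 to 0.0476 FPKM in the others. Nos2 was at 2.93 FPKM in LPS 3 and at 0.247 to 0.961 FPKM in the others. LPS 5 is also the library with the high Gm10800 value and the highest sum of neutrophil markers, and the part of either in these values was not tested.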

How the results depend on the processing

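Of the 30 tested members, 9 kept direction and call status in every one of up to 24 alternatives: Fcgr1, Fcgr4, Cd163, Timd4, Folr2, Marco and Cx3cr1 as calls, Ccr2 and Trem2 without one. Fcgr4 passed the main filter only through LPS, and Timd4 and Marco only through WAT, so their steady calls add no support. With WAT 1 and WAT 4 left out, so that 2 WAT libraries remained, 3 members were higher and 4 lower, and 1462 of all rows were higher. With a filter of a mean of at least 5 FPKM, 4 members and 2468 rows were lower, among fewer rows tested. Leaving out 1 library gave 10 (without WAT 1, WAT 3 or WAT 4) to 15 higher members (without LPS 8) and 5 (without WAT 2) to 8 lower ones (without LPS 6). Over all rows the same step gave 2219 to 3218 higher and 3482 to 4057 lower. Array quality weights gave 16 higher and 8 lower members, and the exact permutation test (smallest p 0.00202) gave 10 and 6.

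The lipid-associated mean difference of -0.14 became 0.11 under quantile normalization, and the resident one of -0.88 became -1.63 with a pseudocount of 0.1. With quantile normalization the median over all rows was 0.10 in place of -0.05, and the share of calls that were lower went from 58.8% to 45.9%; without a filter that share was 67.1%. Uncalled genes near 0 changed sign. With 1 library left out, Csf1r ran from -0.00877 (without LPS 1) to 0.25, Lyz2 from -0.16 to 0.23, Mrc1 from -0.10 to 0.21 and Siglec1 from -0.34 to 0.14. With the replicate block, Lyz2 was at -0.10 and Mrc1 at -0.23. Without WAT 1 and WAT 4, they were at -0.21 and -0.03. Mrc1 was at -0.00942 with array weights and at -0.02 without WAT 2 and LPS 5. Siglec1 was at 0.0719 under quantile normalization and at 0.03 without WAT 2 and LPS 5. The cause of these changes was not tested.

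Replicate numbers 1 to 4 occur in both groups but do not pair the samples: same-numbered libraries had correlations of their deviations of -0.02, 0.02, 0.09 and 0.03. With the replicate block, 9 members were higher and 6 lower, and 2664 and 3375 of all rows. The setting that leaves out WAT 2 and LPS 5 was chosen after seeing the data.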
